A study of Mus musculus with 6 samples.

Results

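The p53 tumour suppressor pathway was followed through 10 of the 39179 genes counted in B16-F10 mouse melanoma cells: Trp53, which encodes p53, its regulators Mdm2, Mdm4 and Cdkn2a, and the p53 target genes Ccng1, Cdkn1a, Bax, Zmat3, Trp53inp1 and Phlda3. The genes were taken by symbol, 10 of 10 were found, and all are reported whatever their values. The set was chosen with earlier results of these data known, so comparing its calls with those of all genes is descriptive only. B16-F10 is a transplantable melanoma line of C57BL/6 mice. Bulk RNA-seq of the cultured line compared 3 libraries of Sirpa-KO cells, which lack Sirpa by design, with 3 libraries of Sirpa-WT cells that keep it. Sirpa encodes SIRPα, the receptor through which phagocytes read CD47, and the comparison addressed the steady-state expression of the melanoma cells with and without it. The labels give no treatment, no number of knockout clones and no knockout method, and they name the line Pmel and the source tumor, whereas the series text describes B16-F10 in culture. Nothing says whether libraries of a group came from separate cultures, so the spread behind each p-value is that of these libraries and may be technical.

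p53 is a transcription factor that is kept scarce in unstressed cells by the ubiquitin ligase MDM2, with its relative MDM4 (MDMX) as a second inhibitor. ARF, one product of Cdkn2a, blocks MDM2, and DNA damage signalling also frees p53. Active p53 turns on genes that arrest the cell cycle or start apoptosis, and it turns on Mdm2 itself, so that the pathway limits its own activity. p53 is controlled mostly at the level of the protein, which was not measured here.

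The libraries were unequal in depth. The Sirpa-KO libraries held 29877270, 338824 and 367667 assigned counts in replicates 1 to 3, against 411695, 343808 and 345543 in Sirpa-WT replicates 1 to 3. The library of Sirpa-KO replicate 1 was 82.6 times as deep as the mean of the 5 shallow libraries and is called the deep library. It also stood apart in profile: processed pseudogenes took 0.177% of its counts, and its CPM (counts scaled to a common library total) of the 4294 tested protein-coding genes lay 1.84-fold above the shallow mean at the median. In the shallow libraries processed pseudogenes took 26.6% and 26.5% of counts in Sirpa-KO replicates 2 and 3, against 28.7%, 28.6% and 29.7% in Sirpa-WT replicates 1 to 3, so this share was also lower in both shallow Sirpa-KO libraries. Each result is therefore given with this library (6 libraries) and without it (5 libraries), and the part that these differences play in the values below was not tested. A count was worth 2.43 to 2.95 CPM in a shallow library, and 0 counts in a shallow library allowed up to 7.29 to 8.85 CPM (3 counts). Sirpa had 1584, 6 and 6 counts in Sirpa-KO cells, against 12, 7 and 3 in Sirpa-WT cells, which is 53.02, 17.7 and 16.3 CPM against 29.1, 20.4 and 8.68 CPM. The groups overlapped, so the transcript count did not separate the genotypes, and a count over the whole gene does not show whether the protein is made. All 7 melanocyte markers were detected, with a summed level of 15519, 12626 and 12990 CPM in Sirpa-KO cells, against 19092, 17283 and 15960 CPM in Sirpa-WT cells. The part of this lower sum in the values below was not tested. Leukocyte markers summed to 3.25 CPM in the deep library and to between 9.72 and 29.9 CPM in the shallow ones, where Ptprc, Cd3e, Cd79a, Adgre1 and Nkg7 were at 0.

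Among the 10 genes, Mdm2 and Ccng1 were higher in Sirpa-KO cells in the 5-library comparison, and no member was lower. Mdm2 was 1.87-fold and Ccng1 1.49-fold higher. In bulk RNA, more cells with a transcript and more of it per cell cannot be told apart. Trp53 itself did not pass the test, with a 1.01-fold ratio, and Cdkn1a, Mdm4, Zmat3, Bax and Trp53inp1 did not pass it either. Of the 8 members that passed the filter on low counts, 2 were called higher and 0 lower by edgeR's quasi-likelihood test at an adjusted p of 0.05, against a background of 1.32% of 5510 tested genes called higher, 4.52% called lower and 5.84% called in either direction. The median log2 fold change of these 8 members was 0.17, against 0.013 for all genes tested. With the deep library included, 0 of 8 members were called, as were 0 of 5397 genes (0.0%). At an unadjusted p under 0.05, 344 genes (6.37%) passed in that comparison, among them Mdm2 and Ccng1, which were higher, as were 4.71% of genes. With 5 libraries Mdm2, Ccng1 and Cdkn1a passed it and were higher, where 8.95% of genes did so. At the adjusted threshold with 6 libraries, DESeq2 called 1 gene and limma voom 1283. The biological coefficient of variation, the spread between libraries of a group beyond counting noise, was 75.8% with the deep library and 7.25% without it. The processed pseudogene share, 26.5% to 26.6% in the shallow Sirpa-KO libraries and 28.6% to 29.7% in the Sirpa-WT libraries, moved with the 5-library calls of Mdm2 and Ccng1, and its part in them was not tested. All 8 tested members had a log2 fold change above 0 with 6 libraries, with a median of 0.49, where the median of all genes tested was 0.11.

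**Figure D1:**
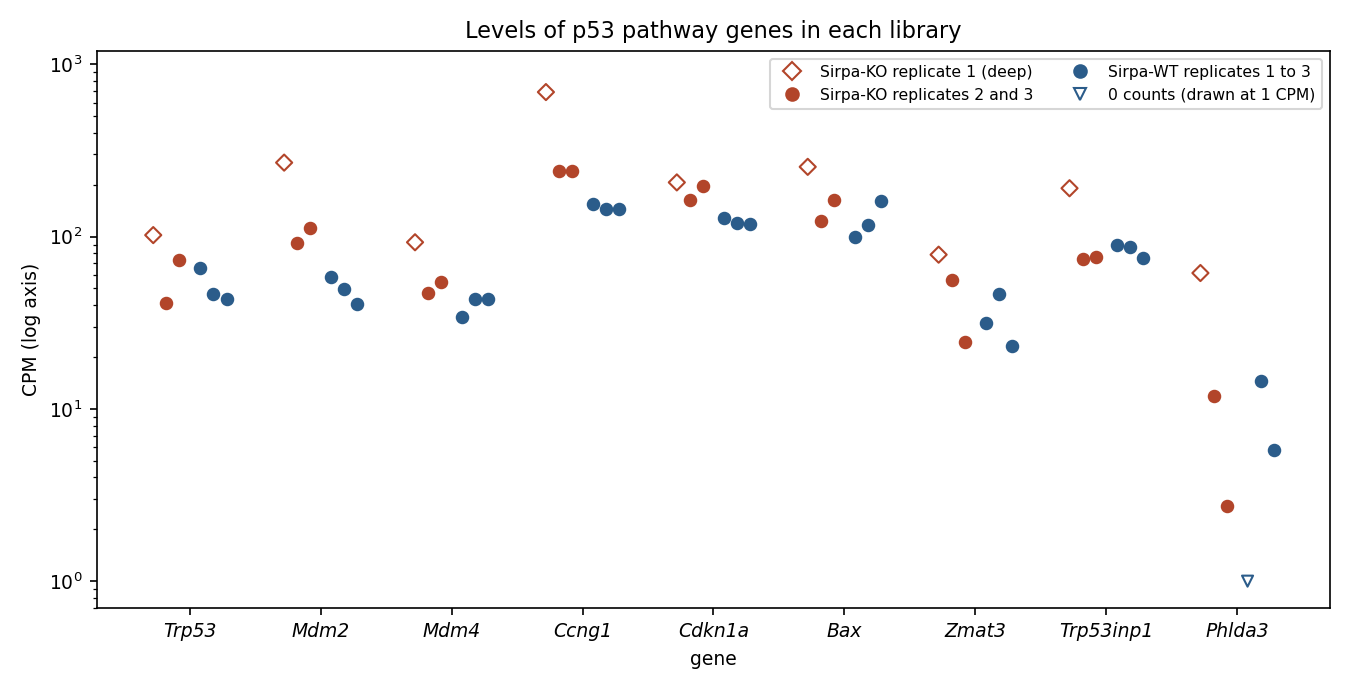
Level of each gene with counts in every library, as CPM on a log axis, with Sirpa-KO libraries to the left of Sirpa-WT libraries and the deep library marked. In the shallow libraries Mdm2, Ccng1, Cdkn1a and Mdm4 have both Sirpa-KO points above the 3 Sirpa-WT points. Cdkn2a, at 0 counts throughout, is not drawn.

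Trp53 (ENSMUSG00000059552, chromosome 11, 69580359 to 69591873 on GRCm38, 7 merged exons) had 3050, 14 and 27 counts in Sirpa-KO replicates 1 to 3, against 27, 16 and 15 in Sirpa-WT replicates 1 to 3. These were 102, 41.3 and 73.4 CPM in Sirpa-KO cells, against 65.6, 46.5 and 43.4 CPM in Sirpa-WT cells. The lowest and the highest value were both from Sirpa-KO libraries, so the groups overlapped. The log2 fold change of Sirpa-KO over Sirpa-WT was 0.020 ± 0.31 (SE) with 5 libraries, with an adjusted p of 0.979 by edgeR's quasi-likelihood test, and 0.32 ± 0.43 with 6 libraries, with an adjusted p of 0.751. With 14 to 27 counts in a shallow library, an SE of 0.31 leaves a difference of modest size undetectable at this depth. The sign of the 5-library value was not stable, since it ranged from -0.48 to 0.34 when single libraries were left out. Of the 25-base words of the Trp53 transcripts, 12.1% also occur in an annotated pseudogene, mainly Trp53-ps, and the authors' counting could have split such reads. The deep library held 1.89 times the shallow mean of Trp53, close to the 1.84-fold median of protein-coding genes.

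Mdm2 (ENSMUSG00000020184, chromosome 10, 117688888 to 117710758, 9 merged exons) encodes the ligase that marks p53 for degradation and is itself a p53 target. It had 8037, 31 and 41 counts in Sirpa-KO cells, against 24, 17 and 14 counts in Sirpa-WT cells. Its level was 269, 91.5 and 112 CPM in Sirpa-KO cells, against 58.3, 49.4 and 40.5 CPM in Sirpa-WT cells. Every Sirpa-KO library lay above every Sirpa-WT library. Over the shallow libraries Mdm2 averaged 102 ± 14.2 CPM in Sirpa-KO cells (SD, n = 2) and 49.4 ± 8.89 CPM in Sirpa-WT cells (SD, n = 3). After TMM scaling, which adjusts for library composition, the log2 fold change was 0.90 ± 0.27 (SE), with an adjusted p of 0.0220 by edgeR's quasi-likelihood test. With 6 libraries it was 1.505 ± 0.48, with an unadjusted p of 0.0195 and an adjusted p of 0.574 by the same test.

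The Mdm2 call rested on few counts. It ended without Sirpa-KO replicate 2 or 3 and without Sirpa-WT replicate 2 or 3, with log2 fold changes between 0.74 and 1.01 and adjusted p-values between 0.0682 and 0.352 by edgeR. It held without Sirpa-WT replicate 1. It also ended without the filter on low counts (0.87, adjusted p 0.0806 by edgeR) and with DESeq2 (0.91), which gave no adjusted p for the gene. The level of Mdm2 in the deep library was 3.83 times the shallow mean, and 93.5% of the 4294 protein-coding genes had a lower ratio. When the dependence of the shallow values on that ratio was removed, the Mdm2 log2 fold change was 0.69 and the adjusted p 0.194 by edgeR, and 0 of the 8 tested members were called, where 0.672% of genes were called higher. The deep library is itself a Sirpa-KO library and 3 of the 5 shallow ones are Sirpa-WT, so the ratio holds part of the difference between the genotypes, and a call lost here and in the same comparison of other genes does not show that the difference was technical. All 12 alternatives of the 5-library comparison gave a positive value, from 0.69 to 1.05.

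The promoter of Mdm2 is shown because Mdm2 was the member with the largest called change. The window is RefSeq's, on GRCm38.p6, chr10:117710709-117711008 on the minus strand, and runs from 250 bases before the annotated start to 50 bases after it. A p53 response element was sought here as a pair of directly adjacent 10-base half-sites, and this form reads alike on both strands. Each half-site has a C and a G around A or T bases at its core and purines and pyrimidines on its flanks. Pairs of half-sites with bases between them were not sought. The capitals mark the half-site found in the window.
Mdm2: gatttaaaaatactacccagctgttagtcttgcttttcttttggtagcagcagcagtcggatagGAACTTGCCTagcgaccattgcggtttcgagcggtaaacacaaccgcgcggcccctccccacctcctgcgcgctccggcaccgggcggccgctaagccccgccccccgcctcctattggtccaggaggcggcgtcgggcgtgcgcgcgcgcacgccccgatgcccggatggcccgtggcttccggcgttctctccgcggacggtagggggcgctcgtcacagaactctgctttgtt
The half-site GAACTTGCCT starts 186 bases before the annotated start and has no adjoining partner. A full half-site occurred in 2745 of 32851 RefSeq promoter windows (8.36%). As background, the best known p53-responsive promoter of Mdm2 lies in an intron, outside this window.

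Mdm4 (ENSMUSG00000054387, chromosome 1, 132989845 to 133025366, 12 merged exons) encodes the relative of MDM2 that binds p53 and blocks its transactivation. Its level was 92.7, 47.2 and 54.4 CPM in Sirpa-KO cells, from 2771, 16 and 20 counts, against 34.0, 43.6 and 43.4 CPM in Sirpa-WT cells, from 14, 15 and 15 counts. The groups did not overlap in CPM before TMM scaling, but the shallow libraries differed by few counts. The scaling lowers the shallow Sirpa-KO values relative to the Sirpa-WT ones, so this narrow separation may not hold after it. The log2 fold change was 0.23 ± 0.34 with 5 libraries (adjusted p 0.763 by edgeR) and 0.53 ± 0.39 with 6 (adjusted p 0.584 by edgeR). Of the Mdm4 words of 25 bases, 16.5% are shared with a pseudogene, mainly Mdm4-ps. These 14869 words come from all GENCODE M21 transcripts of Mdm4, whereas the counted exons span 3511 bases. The share within the counted exons is therefore not known.

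Cdkn2a (ENSMUSG00000044303, chromosome 4, 89274471 to 89294653, 4 merged exons) encodes the CDK inhibitor INK4A and, in another reading frame, ARF, the inhibitor of MDM2. No library held a Cdkn2a count. In the deep library 0 of 29877270 counts allows a level of up to 0.100 CPM, and 0 of 1807537 pooled shallow counts allows up to 1.66 CPM. These limits cover counting error only. Cdkn2b, the neighbouring gene for the CDK inhibitor INK4B, was at 0 in all 6 libraries too. Both genotypes thus had no detectable transcript of either gene, and no comparison between them was possible. For scale, 30.8% of 21226 protein-coding genes had no count in the deep library.

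Around Cdkn2a, within 1000 kb on either side, the files list 68 genes, of which 47 had no count in any library. Of the 29 protein-coding genes there, 21 had no count. These include a cluster of interferon alpha genes, such as Ifna1, Ifna2 and Ifna4, so the share is not one of unrelated genes. Mtap, which encodes a methionine salvage enzyme and starts at -157.5 kb (lower coordinates) from the Cdkn2a start, was abundant, with 588 CPM in the deep library and 1193 CPM over the pooled shallow libraries. Klhl9 reached 160 CPM in the deep library and 70.8 CPM in the shallow ones. On the other side, Dmrta1 had 3 counts in the deep library and 0 in the shallow libraries. Silence of the gene and loss of its DNA cannot be told apart from transcript counts.

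**Figure D2:**
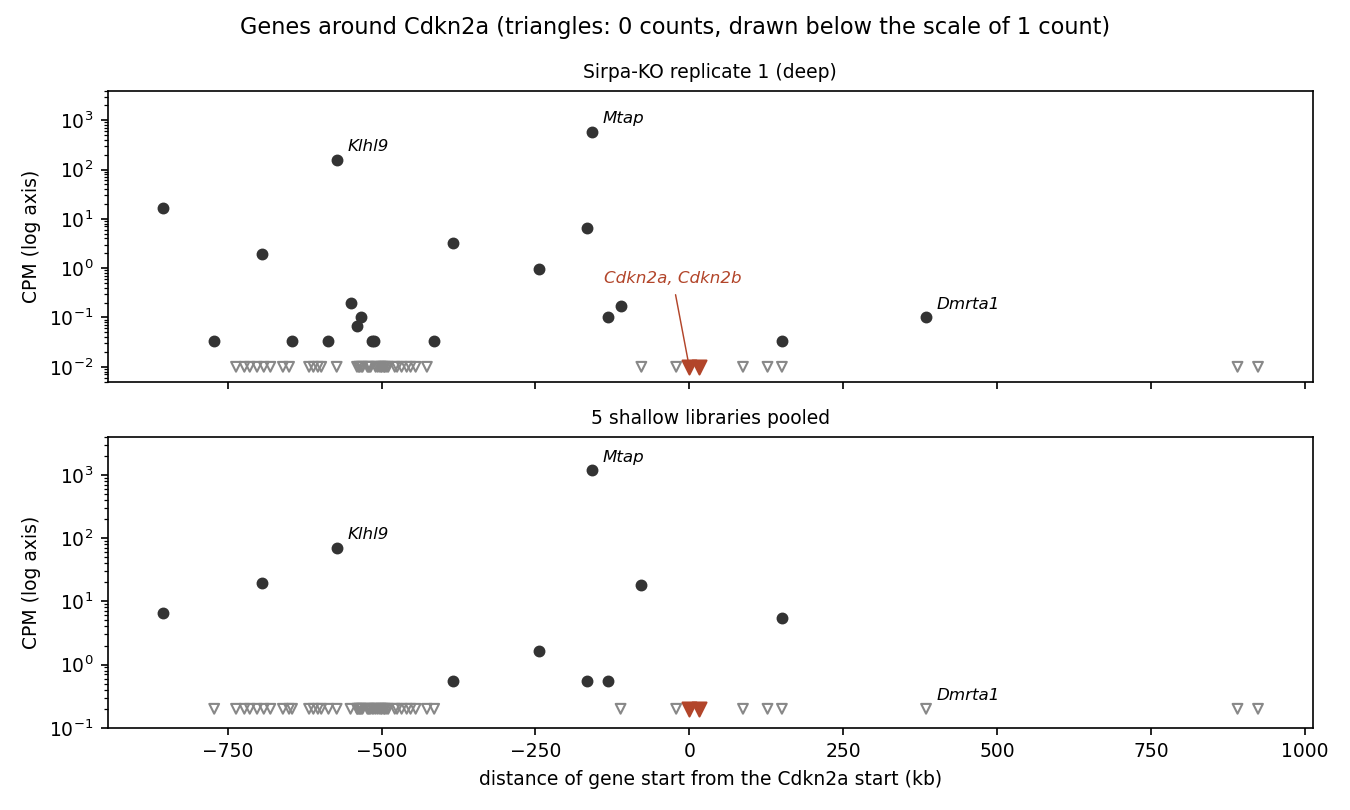
Level of each gene within 1000 kb of Cdkn2a by the distance of its start from the Cdkn2a start in kb, as CPM on a log axis, in the deep Sirpa-KO library (top) and the 5 shallow libraries pooled (bottom). Triangles stand for 0 counts. Mtap is at 588 CPM in the deep library, while Cdkn2a and Cdkn2b have no counts in either panel.

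Ccng1 (ENSMUSG00000020326, chromosome 11, 40748552 to 40755311, 6 merged exons) encodes cyclin G1, a p53 target that acts with the phosphatase PP2A on MDM2. It had 20636, 82 and 88 counts in Sirpa-KO cells, against 64, 50 and 50 counts in Sirpa-WT cells. Its level was 691, 242 and 239 CPM in Sirpa-KO cells, against 155, 145 and 145 CPM in Sirpa-WT cells. The groups did not overlap, and the shallow libraries of each group lay close together, at 241 ± 1.89 CPM in Sirpa-KO cells (SD, n = 2) and 149 ± 6.01 CPM in Sirpa-WT cells (SD, n = 3). The log2 fold change was 0.57 ± 0.19 with 5 libraries, with an adjusted p of 0.0392 by edgeR's quasi-likelihood test. With 6 libraries it was 1.22 ± 0.48, with an unadjusted p of 0.0434 and an adjusted p of 0.574 by the same test.

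The Ccng1 call ended under the same alternatives as that of Mdm2. Without Sirpa-KO replicate 2 or 3 and without Sirpa-WT replicate 2 or 3, the log2 fold change was between 0.54 and 0.57 and the adjusted p between 0.0603 and 0.249 by edgeR. It was 0.54 without the filter (adjusted p 0.152 by edgeR) and 0.57 with DESeq2 (adjusted p 0.131). The deep library held 3.73 times the shallow mean, a ratio above that of 93.3% of protein-coding genes. With the dependence on that ratio removed the value was 0.35 (adjusted p 0.384 by edgeR). The value stayed positive under all 12 alternatives of the 5-library comparison, from 0.35 to 0.71.

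Cdkn1a (ENSMUSG00000023067, chromosome 17, 29090979 to 29100722, 4 merged exons) encodes p21, the CDK inhibitor that carries much of the p53 arrest response. It had 6169, 55 and 72 counts in Sirpa-KO cells, against 53, 41 and 41 in Sirpa-WT cells. Its level was 206, 162 and 196 CPM in Sirpa-KO cells, against 129, 119 and 119 CPM in Sirpa-WT cells. Every Sirpa-KO library lay above every Sirpa-WT library. The log2 fold change was 0.43 ± 0.20 with 5 libraries and 0.47 ± 0.25 with 6, with adjusted p-values of 0.193 and 0.574 by edgeR, so it did not pass the test. Cdkn1a was the tested member whose value moved least with the deep library, which held 1.42 times the shallow mean, below the 1.84-fold median of protein-coding genes.

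Ccng1 and Cdkn1a each carry a match to a full p53 response element in a RefSeq promoter window, and the windows are printed for that reason. The Ccng1 window is chr11:40755237-40755536 on the minus strand and that of Cdkn1a chr17:29090729-29091028 on the plus strand, both on GRCm38.p6, and capitals mark the 20-base element.
Ccng1: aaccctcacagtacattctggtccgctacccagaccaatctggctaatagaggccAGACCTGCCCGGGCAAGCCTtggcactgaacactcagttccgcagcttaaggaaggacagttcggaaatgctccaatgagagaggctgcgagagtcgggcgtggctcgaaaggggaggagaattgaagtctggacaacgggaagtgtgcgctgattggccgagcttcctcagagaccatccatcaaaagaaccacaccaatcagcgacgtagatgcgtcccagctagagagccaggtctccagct
Cdkn1a: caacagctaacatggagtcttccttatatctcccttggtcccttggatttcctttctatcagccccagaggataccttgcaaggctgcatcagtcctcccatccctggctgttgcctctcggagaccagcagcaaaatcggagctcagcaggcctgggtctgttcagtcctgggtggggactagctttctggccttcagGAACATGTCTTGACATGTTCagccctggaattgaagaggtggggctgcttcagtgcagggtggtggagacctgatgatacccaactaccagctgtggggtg
The Ccng1 element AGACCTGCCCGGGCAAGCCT starts 195 bases before the annotated start, and the Cdkn1a element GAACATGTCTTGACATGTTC starts 51 bases before the more distal of its annotated starts. Each has 1 mismatch. An element with at most 1 mismatch and intact core C and G occurred in 22 of 32851 windows (0.0670%), and with at most 2 mismatches in 107 (0.326%). RefSeq windows matched 8 of the 10 members, with 11 windows in all. A second Cdkn1a window held no element of this form, and Trp53 and Bax held a half-site without an adjoining partner. The windows of Mdm4, Cdkn2a and Phlda3 held neither. These matches describe letters in the windows and not binding.

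Zmat3 (ENSMUSG00000027663, chromosome 3, 32334796 to 32365678, 7 merged exons) encodes an RNA-binding zinc finger protein induced by p53. Its level was 78.6, 56.1 and 24.5 CPM in Sirpa-KO cells, from 2348, 19 and 9 counts, against 31.6, 46.5 and 23.2 CPM in Sirpa-WT cells, from 13, 16 and 8 counts. The groups overlapped. The log2 fold change was 0.12 ± 0.37 with 5 libraries (adjusted p 0.900 by edgeR) and 0.51 ± 0.53 with 6 (adjusted p 0.687 by edgeR).

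Of the apoptosis genes, Bax (ENSMUSG00000003873, chromosome 7, 45461695 to 45466898, 6 merged exons) encodes the BCL2 family protein that opens the outer mitochondrial membrane. Its level was 254, 124 and 163 CPM in Sirpa-KO cells, from 7595, 42 and 60 counts, against 99.6, 116 and 162 CPM in Sirpa-WT cells, from 41, 40 and 56 counts. The Sirpa-KO and Sirpa-WT libraries overlapped. The log2 fold change was 0.089 ± 0.21 with 5 libraries (adjusted p 0.862 by edgeR) and 0.36 ± 0.37 with 6 (adjusted p 0.679 by edgeR).

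Trp53inp1 (ENSMUSG00000028211, chromosome 4, 11156431 to 11174379, 5 merged exons) encodes a p53-induced nuclear protein that takes part in apoptosis and autophagy. Its level was 191, 73.8 and 76.2 CPM in Sirpa-KO cells, from 5706, 25 and 28 counts, against 89.9, 87.3 and 75.2 CPM in Sirpa-WT cells, from 37, 30 and 26 counts. It was the tested member whose sign depended on the deep library: the log2 fold change was -0.29 ± 0.27 with 5 libraries (adjusted p 0.586 by edgeR) and 0.27 ± 0.44 with 6 (adjusted p 0.794 by edgeR).

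Phlda3 (ENSMUSG00000041801, chromosome 1, 135766119 to 135769136, 3 merged exons) encodes a p53-induced inhibitor of AKT. It had 1837, 4 and 1 counts in Sirpa-KO cells, against 0, 5 and 2 counts in Sirpa-WT cells, and did not pass the filter. Its level was 61.5, 11.8 and 2.72 CPM in Sirpa-KO cells, against 0, 14.5 and 5.79 CPM in Sirpa-WT cells. All shallow values rest on 5 counts or fewer, while the deep library held 8.82 times the shallow mean. Without the filter, the log2 fold change was 0.00 ± 0.91 with 5 libraries and 1.49 ± 1.23 with 6, with adjusted p-values of 1 and 0.938 by edgeR.

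**Figure D3:**
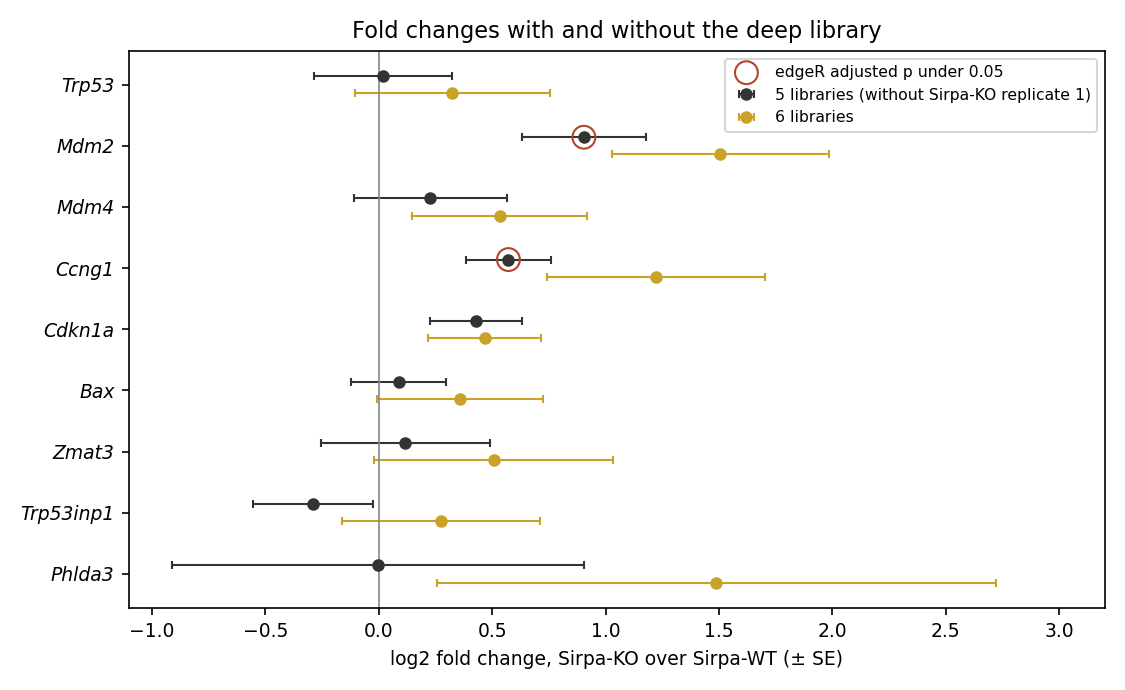
Log2 fold change of Sirpa-KO over Sirpa-WT with its SE for each gene with counts, in the 5-library and the 6-library comparison. Rings mark Mdm2 (0.90) and Ccng1 (0.57), the members with an edgeR adjusted p under 0.05, and Trp53inp1 lies on opposite sides of 0.

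In the 6 libraries, Mdm2, Mdm4, Ccng1 and Cdkn1a had every Sirpa-KO value above every Sirpa-WT value, which is 4 of the 8 tested members, where 20.4% of 5397 genes did so. The same 4 genes did so in the 5 shallow libraries, where the background was 26.3% of 5510 genes. These counts of members and of all genes use CPM without TMM scaling. The 5-library TMM factors were 1.05 and 1.06 in Sirpa-KO libraries and 0.958 to 0.968 in Sirpa-WT libraries. Scaling thus lowers Sirpa-KO values relative to Sirpa-WT values, and separation after it was not tested. No tested member had every Sirpa-KO value below every Sirpa-WT value, where 10.2% of genes did so with 6 libraries and 11.8% with 5. Per kilobase of exon, over the shallow libraries, Bax was the most abundant member at 153 CPM per kb, followed by Cdkn1a at 65.2 and Ccng1 at 52.8 CPM per kb. Mdm2 had 18.05 and 21.99 CPM per kb in the shallow Sirpa-KO libraries, against 11.5, 9.75 and 7.99 CPM per kb in the Sirpa-WT libraries. Its place therefore differed by group: it stood above Trp53, Mdm4 and Trp53inp1 in both shallow Sirpa-KO libraries, whereas it was below all of them in Sirpa-WT replicates 2 and 3. Trp53, Mdm4 and Trp53inp1 ranged from 9.69 to 18.2 CPM per kb over the shallow libraries without a fixed order. Zmat3 and Phlda3 averaged 4.50 and 4.47 CPM per kb there. The deep library had the same leading member, Bax at 293 CPM per kb, but Ccng1 (197 CPM per kb) stood above Cdkn1a (92.9 CPM per kb) there. No exon base of the 10 genes is shared with another gene of the annotation.

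The rest of the pathway was read from 7 lists of genes other than the members. Of 22 p53 regulators in the files, 12 were tested in the 5-library comparison, with 2 higher, 0 lower and 10 not called, where 1.32% of all 5510 genes were called higher and 4.52% lower. The median log2 fold change of these 12 was 0.32, against 0.013 for all genes. The called genes were Ncl and Npm1, which encode the nucleolar proteins nucleolin and nucleophosmin, known to bind MDM2 or ARF. Ncl had 2747, 2004 and 2024 CPM in Sirpa-KO cells, against 1319, 1323 and 1236 CPM in Sirpa-WT cells. Its log2 fold change was 0.52 ± 0.10, with an adjusted p of 1.01e-05 by edgeR. Npm1 had 2298, 1057 and 955 CPM in Sirpa-KO cells, against 653, 701 and 697 CPM in Sirpa-WT cells, with a log2 fold change of 0.44 ± 0.11 and an adjusted p of 0.00455 by edgeR. For both genes every Sirpa-KO library lay above every Sirpa-WT library, as for 20.4% of the genes tested with 6 libraries and 26.3% with 5. Of the 25-base words of Npm1, 29.3% are shared with pseudogenes, so its counts are uncertain. With 6 libraries, 0 of 11 tested regulators were called. Npm1 was not called when the dependence on the ratio to the deep library was removed or when Sirpa-KO replicate 2 was left out, which left Ncl as the only regulator called.

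Of the 19 p53 targets in DNA repair and metabolism, 7 were tested, with 0 higher, 1 lower and 6 not called, where 4.52% of all genes were called lower. Ephx1, the microsomal epoxide hydrolase, was lower, with 106, 210 and 237 CPM in Sirpa-KO cells, against 355, 262 and 281 CPM in Sirpa-WT cells. Its log2 fold change was -0.55 ± 0.17, with an adjusted p of 0.0244 by edgeR, and every Sirpa-KO library lay below every Sirpa-WT library, as for 10.2% of the genes tested with 6 libraries. The Ephx1 call ended with library size alone, DESeq2, the replicate block, the removal of the dependence on the deep ratio, and without Sirpa-WT replicate 1, Sirpa-KO replicate 2 or Sirpa-KO replicate 3. The log2 fold changes of the list ran from -0.76 for the stress-induced Sesn1 (adjusted p 0.104 by edgeR) to 0.92 for the DNA polymerase gene Polk (adjusted p 0.216 by edgeR), with a median of 0.22.

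The other lists gave no called gene in either comparison. Among 18 CDK inhibitors and RB pathway genes 10 were tested, with a median log2 fold change of -0.022, and Cdk2, its most abundant tested gene, was at -0.13 (adjusted p 0.743 by edgeR). Of 13 BCL2 family genes 3 were tested: Bak1 at -0.38, Mcl1 at 0.037 and Bcl2l1, which encodes the survival protein BCL-XL, at 0.96 on the log2 scale. Of 13 apoptosis targets only Ei24 passed the filter, at 0.14, and of 9 arrest targets none did. Trp63 and Trp73, the paralogues of Trp53, were at 0 counts in all 6 libraries, as were the p53 targets Pmaip1, Trp53i11 and Rprm.

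**Figure D4:**
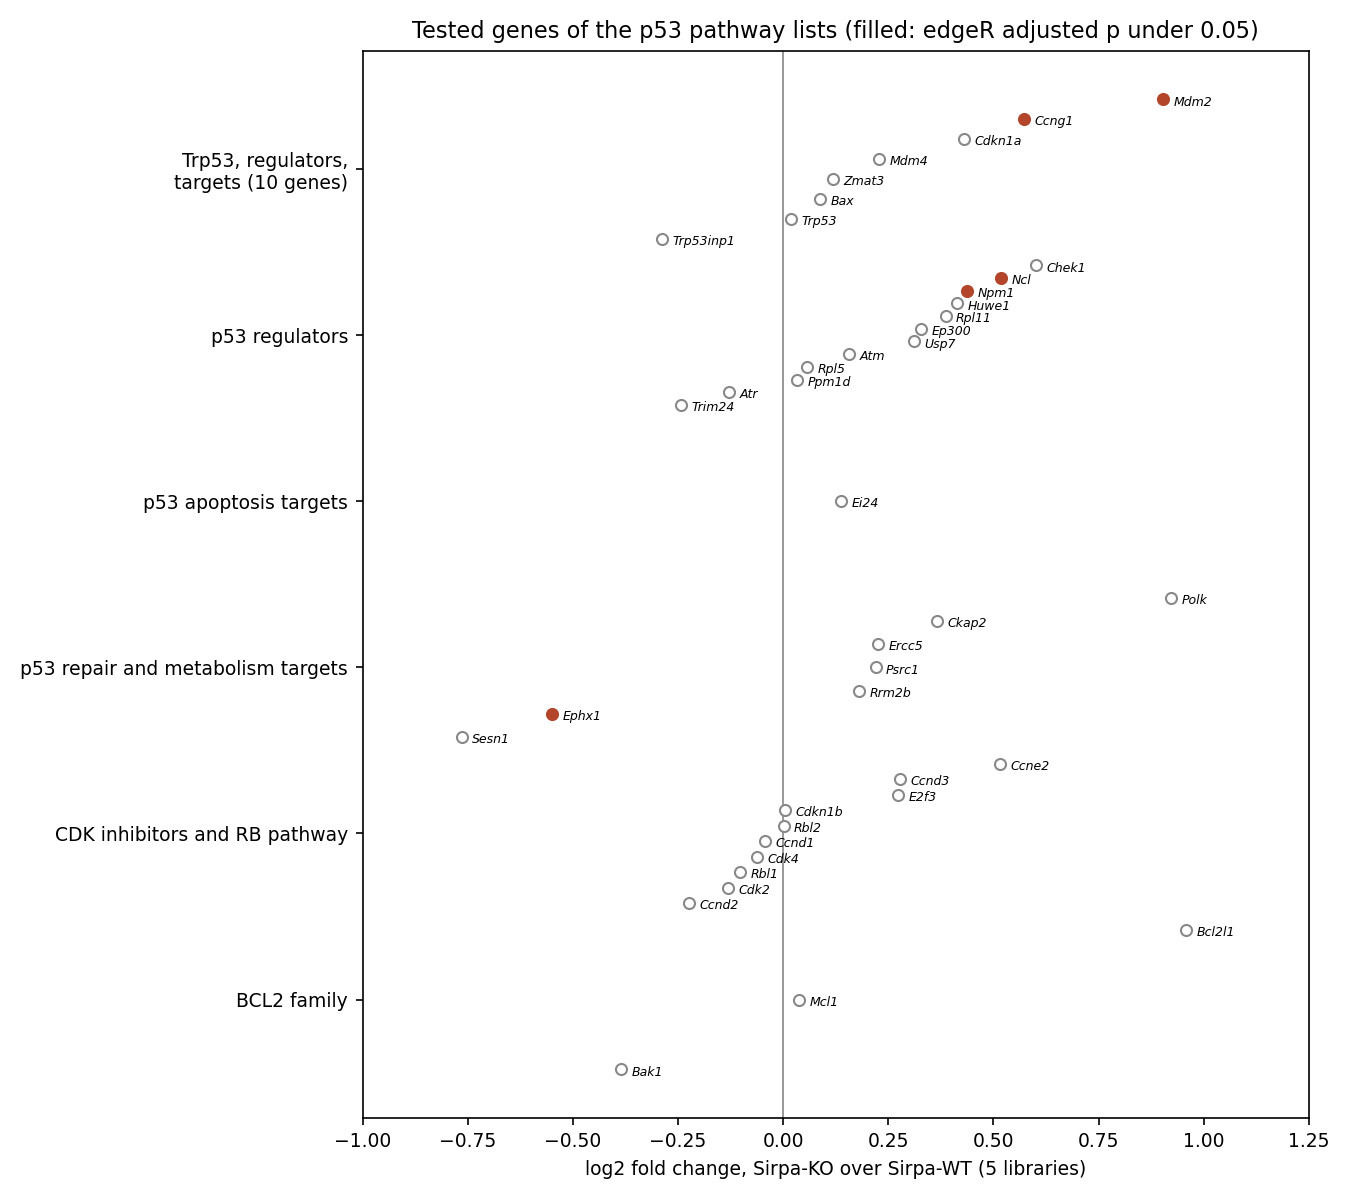
Log2 fold change of Sirpa-KO over Sirpa-WT in the 5-library comparison for every tested gene of the members and of the pathway lists, a row for each list. Filled points are Mdm2, Ccng1, Ncl and Npm1 above 0 and Ephx1 below 0, the genes with an edgeR adjusted p under 0.05.

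The chromosomal surroundings of the called members were examined next. In the 5-library comparison 5.84% of 5510 genes were called, and 1.32% were called higher. Within 1 Mb of the Mdm2 start, 8 other genes were tested and 0 called. Of these neighbours 5 were above 0, with a median log2 fold change of 0.35, against 0.013 for all genes tested. The values ran from -0.20 for Mdm1 to 0.56 for Cpsf6. Within 1 Mb of Ccng1, 3 genes were tested. Hmmr, which encodes a hyaluronan receptor of the mitotic spindle and starts 21.9 kb away, was called higher at 1.37 ± 0.37 on the log2 scale (adjusted p 0.00843 by edgeR). Its level was 246 CPM in the deep library, against a mean of 36.2 CPM in the shallow ones. Whether the Hmmr call holds under the alternatives applied to Mdm2 and Ccng1 is not reported here. Nudcd2 was at 0.056 and Hspd1-ps3 at 0.12.

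**Figure D5:**
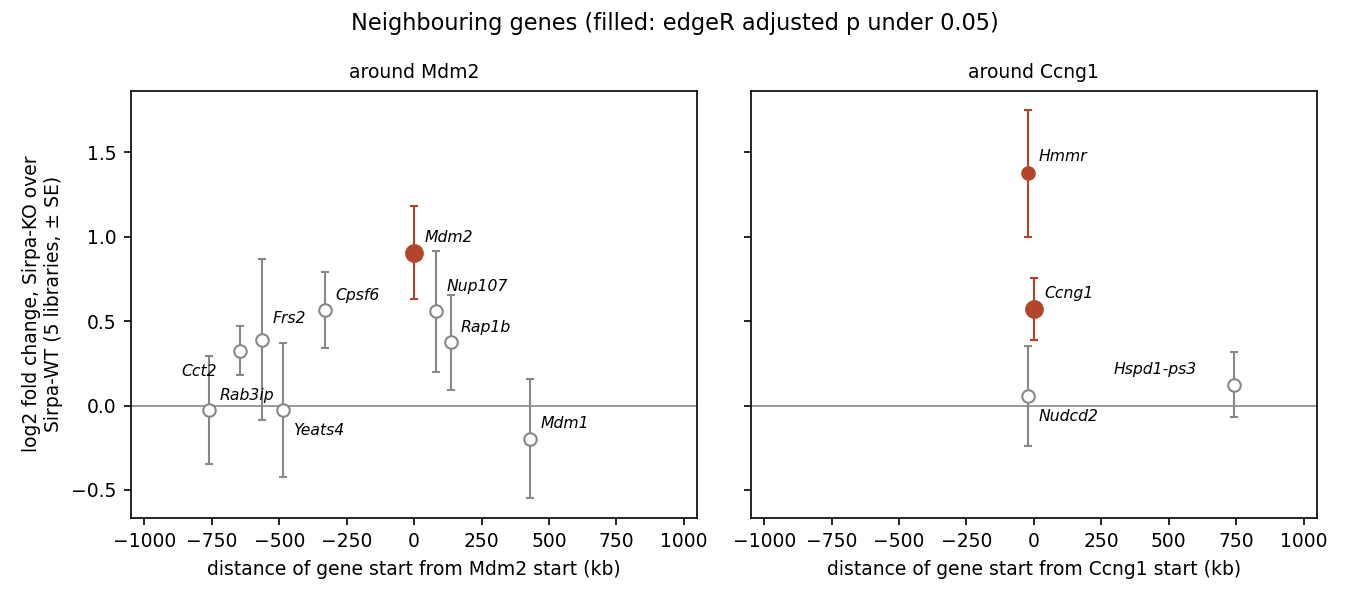
Log2 fold change (± SE, 5 libraries, Sirpa-KO over Sirpa-WT) of tested genes within 1 Mb of Mdm2 (left) and Ccng1 (right) by the distance between starts in kb. Filled points have an edgeR adjusted p under 0.05: Mdm2 alone on the left, and Hmmr (1.37) and Ccng1 (0.57) on the right.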

How the data were processed

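mRNA libraries of 3 Sirpa-KO and 3 Sirpa-WT samples were made with a TruSeq stranded kit, per the labels' protocols. The authors deposited raw counts per gene: reads were counted as pairs with featureCounts 1.5.1 against Ensembl release 75 on GRCm38, with no strand option, per the file headers, and STAR 2.6.0 and Subread are named in the submitters' processing notes. Since strand was ignored, reads of overlapping antisense genes cannot be told apart. Single-cell data named in the series text were not analysed here.

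Symbols were given to 37607 of 39179 gene identifiers, and CPM is the count over the library's total. Sirpa-KO was compared with Sirpa-WT by edgeR 4.0.16 (R 4.3.3) with filterByExpr at a minimum count of 10, TMM scaling and the robust quasi-likelihood test, 2-sided, adjusted by Benjamini-Hochberg across the tested genes at 0.05, with 6 libraries and with 5. SE is the log2 fold change over the square root of F. The code was tested on simulated data. Alternatives were RLE size factors computed by edgeR, library size alone, no filter, DESeq2 1.42.0 and limma 3.58.1 voom. Others were the replicate number as a block, each library left out, and the deep library thinned to 361479 counts. A lowess trend (span 0.3) on each gene's log2 ratio between the deep library and the shallow mean was also removed. That removal also takes out part of any genotype difference. The 4 pairs of shallow libraries within a group each differed beyond sampling of reads (chi-square over its degrees of freedom, 1.15 to 1.45). Pairs with the deep library were not compared in this way. Pseudogene sharing was computed from GENCODE M21 transcripts.

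All 10 members were named whatever their values, with up to 4 called genes per list, or the most abundant tested gene where none was called. Other genes of the lists (Sesn1, Polk, Mcl1, Bcl2l1), the genes around Cdkn2a and the neighbours named were picked after their values were seen. The members and lists were chosen with earlier results of these data known, and the comparison without the deep library was chosen for the same reason.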

Additional observations from a re-analysis of the deposited data

How the results depend on the processing

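In the comparison of 5 libraries, 322 genes and 2 members were called. DESeq2 called 132 genes and 0 members, removal of the trend on the deep library's ratio 116 genes and 0 members, and the absence of a filter 254 genes and 0 members. Among the tested members DESeq2 gave an adjusted p for Ccng1 alone (0.131), so its 0 members rests on that gene. Leaving out a library gave 125 to 351 genes and 0 to 2 members. With 6 libraries 0 genes were called, against 1 by DESeq2 and 1283 by limma voom (17 higher, 1266 lower, with Ncl and Sesn1 as the genes of the pathway lists called), and leaving out a library gave 0 to 322 genes and 0 to 2 members, the upper values without Sirpa-KO replicate 1. Library size alone turned the split of the 5-library calls to 279 higher and 128 lower, from 73 and 249, with a median log2 fold change of all genes of 0.15 in place of 0.013. With 6 libraries that median was 0.11, against 0.36 with library size alone, -0.038 with edgeR's RLE size factors and 0.53 without a filter.

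The sign of values close to 0 changed. Trp53inp1, 0.27 with 6 libraries, was -0.24 with the deep library thinned, and between -0.29 and 0.40 when a library was left out. With 5 libraries, Trp53 (0.020) was -0.016 without a filter, -0.013 with limma voom and -0.14 with the trend removed, and ran from -0.48 to 0.34 when a library was left out. Bax (0.089) was -0.077 with the trend removed and ran from -0.14 to 0.31 without a library. Zmat3 (0.12) was -0.076 with the trend removed, and ran from -0.59 to 0.60 without a library. The cause was not tested. No tested value of Mdm2, Ccng1, Cdkn1a or Mdm4 changed sign under any alternative of either comparison.

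Deviations of same-numbered libraries from their group means correlated at 0.024, -0.042 and 0.058 over 5397 genes. Those of other pairs ran from -0.063 to 0.065. The Sirpa-KO mean includes the deep library, which enters every Sirpa-KO deviation, so these values cannot decide whether the replicate numbers pair the libraries. With the replicate block, 316 genes (249 of them among the 322) and both members were called with 5 libraries, Mdm2 at 1.05 and Ccng1 at 0.61, and Bax was at -0.077. Shallow libraries of 338824 to 411695 counts limit what can be detected for members with under 30 counts.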
